A study of Arabidopsis thaliana with 7 samples.

Results

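Salicylic acid and pipecolic acid are defence signals of plants, and 7 genes of their synthesis and signalling were followed here over 7 arrays of Arabidopsis thaliana seedlings. They are ICS1 (AT1G74710, also called SID2), EDS5 (AT4G39030), ALD1 (AT2G13810), SARD4 (AT5G52810), FMO1 (AT1G19250), PAD4 (AT3G52430) and EDS1 (AT3G48090). Each was read through 1 probe set, in the same order 262177_at, 252921_at, 265658_at, 248330_at, 256012_at, 252060_at and 252373_at, out of 22746 probe sets in all. The set was defined by these probe sets and loci, by a rule that uses no measured value, though it was drawn up with earlier results of these data known. The platform gene table paired 1 of the 7, 248330_at, with its locus, and the other pairings rest on the definition of the set.

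The arrays measured total RNA of whole seedlings grown for 7 days at 21 °C in 16 h light and 8 h dark, on 1-colour arrays with a biotin label. Col, the Columbia wild type, had 3 arrays, and 3 came from soc1-101D, in which the flowering gene SOC1 is overactive and which flowers early, with Col as its basal strain. The knock-out soc1-2, which flowers late and also has Col as its basal strain, had 1 array. Experiments are numbered 1, 2 and 3, with a Col and a soc1-101D array in each and the soc1-2 array in experiment 3, and each mutant is a single allele. Nothing in the labels says that the experiments were planted apart. The p-values below therefore speak for the variation among these arrays, part of which may be technical.

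In plastids ICS1 makes isochorismate, the main precursor of salicylic acid in Arabidopsis, and EDS5 is a transporter of the plastid envelope that exports it. In the pipecolate branch the aminotransferase ALD1 and the reductase SARD4 turn lysine into pipecolic acid, and FMO1 hydroxylates that to N-hydroxypipecolic acid, which acts in systemic acquired resistance. EDS1 and PAD4 are lipase-like proteins that bind each other, relay signals of immune receptors and promote both branches.

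Values are given as scaled signals, which are the deposited intensities after each array was brought to the common median of 192.7. Log2 differences were taken after adding a pseudocount of 19.3 to the scaled signal, so they understate changes of dim genes. Each was taken within an experiment, mutant minus Col, and the mean over experiments comes from a linear model (limma) with the experiment as a block. The model was tested on the 13648 probe sets that remained once the dimmest 40%, ranked by their mean log2 value, had been removed. A gene was called at a Benjamini-Hochberg adjusted p under 0.05 over those probe sets. ICS1, EDS5, SARD4 and EDS1 were among them. ALD1, FMO1 and PAD4 were too dim, at percentiles 26.5, 24.3 and 34.8 of the mean log2 value, and are described without a test at this setting.

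Across the tested probe sets, r was 0.954 to 0.983 within an experiment and 0.824 to 0.929 between experiments. The gene table paired 0 probe sets with SOC1, so the genotypes rest on the labels. Leaf and root markers were present on every array: the summed scaled signal of 3 leaf markers (RCA, LHCB4.1 and LHCB4.2) ran from 56100 to 95200 in Col, from 68600 to 90200 in soc1-101D and was 56500 in soc1-2. That of 3 root markers (PYK10, EXPA7 and EXPA18) ran from 16800 to 23000, from 13700 to 22500 and was 20100. Nearly all of that sum was PYK10, at 13100 to 22000 over the arrays, against 127 to 249 for EXPA7 and 268 to 709 for EXPA18. The sum therefore says little of EXPA7 and EXPA18. Their log2 differences in soc1-101D varied in sign between experiments (0.70, −0.65 and 0.14, and 0.18, −0.79 and 0.19). No seed or floral marker had a probe set in the gene table, so these organs were not checked. In RNA of whole seedlings, fewer cells of a type and less RNA per cell cannot be told apart.

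**Figure D1:**
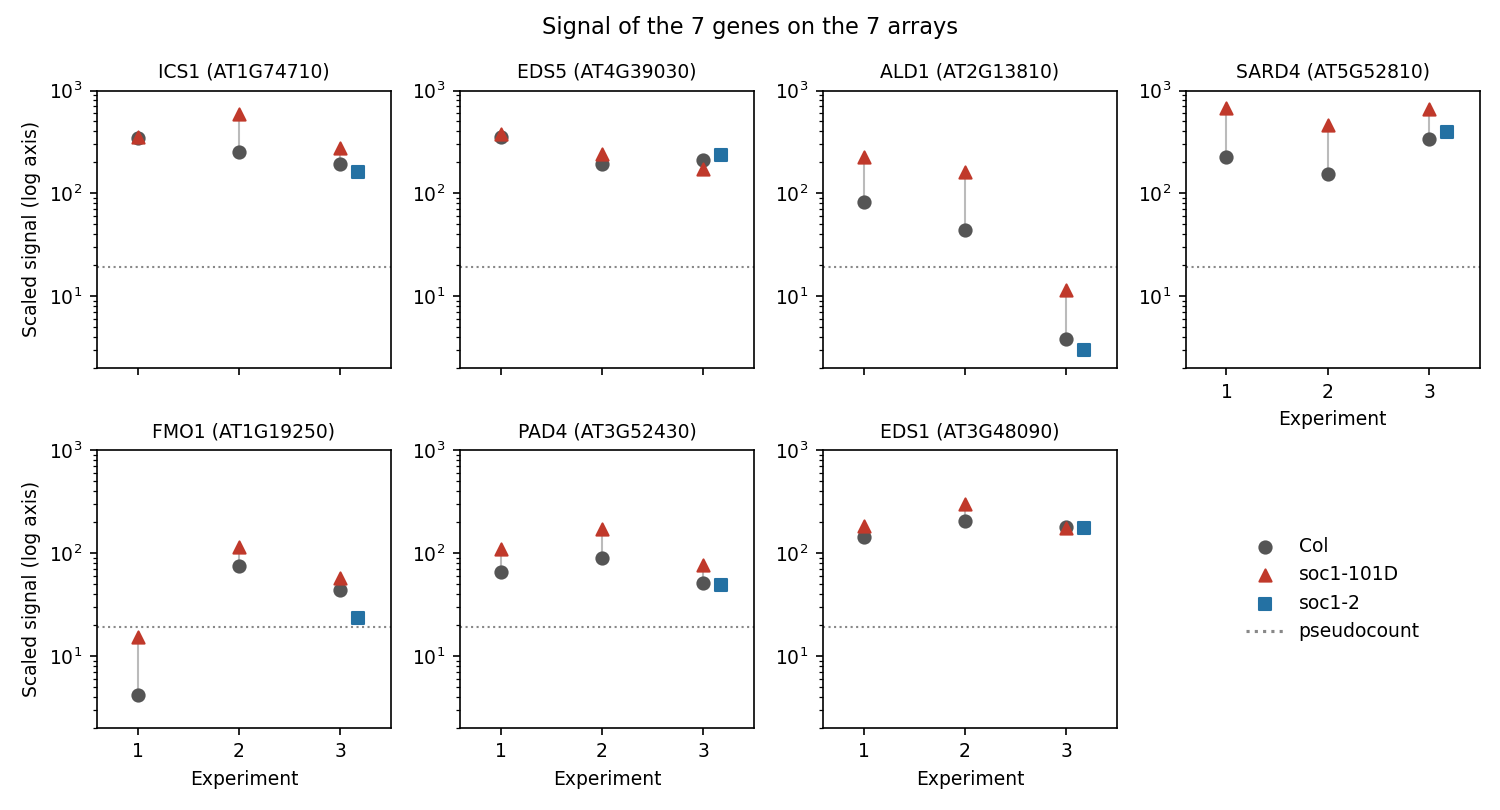
Scaled signal (log axis) of each gene by experiment, with 1 point per array: grey circles for Col, red triangles for soc1-101D and blue squares for soc1-2, shifted sideways; grey lines join Col and soc1-101D of an experiment and the dotted line is the pseudocount of 19.3. The soc1-101D triangle lies above the Col circle in 19 of 21 pairs, which are not independent, since all genes were read on the same arrays of 3 experiments. ALD1 in experiment 3 and FMO1 in experiment 1 lie below the dotted line on Col and soc1-101D alike.

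The first comparison asked how the 7 genes differed when SOC1 was overactive. SARD4 rose in soc1-101D, 2.46-fold over Col, and was the 1 gene called of the 4 tested, where 0.271% of the tested probe sets were called higher and 0.271% lower. All 7 genes were higher than Col in experiments 1 and 2 and 5 of 7 in experiment 3. Over all probe sets the median log2 difference in these experiments was −0.01, −0.01 and 0.02. The 7 genes were read on the same arrays, so they are not independent counts. The 5 genes higher in all 3 experiments were ICS1, ALD1, SARD4, FMO1 and PAD4, a pattern that 15.0% of all probe sets showed. The median log2 difference of the 7 genes was 0.55, beside −0.01 over all 22746 probe sets.

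SARD4, which reduces the ALD1 product to pipecolic acid, had Col signals of 228, 155 and 339 in experiments 1, 2 and 3. It read 671, 467 and 666 in soc1-101D. Every soc1-101D array thus lay above every Col array, which held for SARD4 alone of the 7 genes and for 2.34% of all probe sets. Its log2 differences within the experiments were 1.48, 1.48 and 0.94, with a mean of 1.30 ± 0.17 (SE of the limma fit, n = 3 experiments, limma adjusted p = 0.0276). Of 12 processing alternatives, those that change the filter, the variance prior, the block or the soc1-2 array cannot alter this mean. Over the others, which change the scaling, the pseudocount or the experiments kept, it lay between 1.07 and 1.48. The call was lost in 5 of the 12. Its adjusted p was 0.0681 with quantile normalization, 0.267 and 0.479 with 20% and none of the dim probe sets left out, 0.122 without experiment 1 and 1 without the experiment block. With none of the dim probe sets left out, 0 probe sets were called, against 1714 at an unadjusted p under 0.05.

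**Figure D2:**
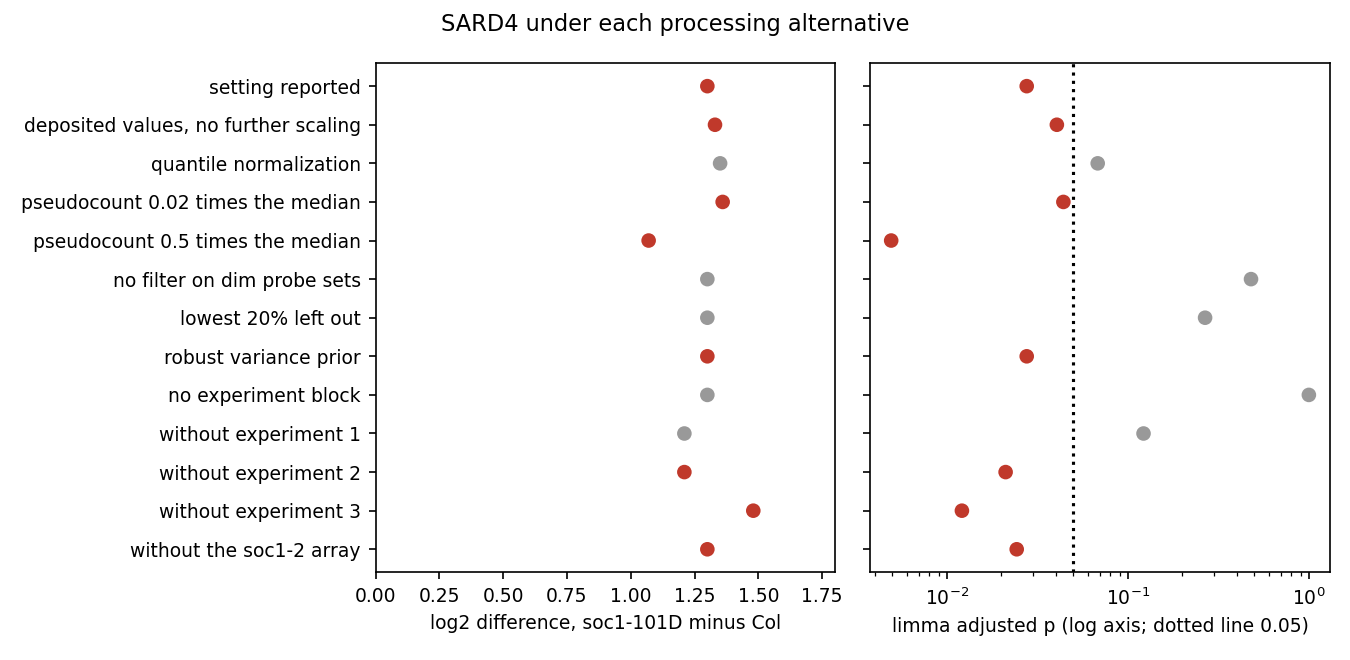
SARD4 in soc1-101D against Col under the setting reported and 12 alternatives: the left panel gives the log2 difference and the right panel the limma adjusted p on a log axis, with red points under 0.05 and grey points above it. The difference stayed between 1.07 and 1.48, while 5 alternatives put the adjusted p above the dotted line.

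ALD1, the aminotransferase that starts the branch, read 81.6, 44.5 and 3.84 in Col and 224, 162 and 11.5 in soc1-101D. The soc1-101D array was the higher in each experiment, but the groups overlap, because both arrays of experiment 3 were far below those of the others. The plain ratios of scaled signal were 2.75, 3.64 and 3.00. The log2 differences after the pseudocount were 1.27, 1.51 and 0.41, since both signals of experiment 3 lie under the pseudocount. The mean was 1.06, with an SD of 0.57 over the 3 experiments, and it was 1.40 or 0.61 with a pseudocount of 0.02 or 0.5 times the median. With no filter on dim probe sets, limma gave ALD1 an SE of 0.26 and an adjusted p of 0.532, where 0% of probe sets were called. ALD1 and SARD4 were the 2 of 7 genes at least 2-fold higher in both of experiments 1 and 2, against 0.963% of all probe sets. In experiment 3 neither reached 2-fold after the pseudocount, at 1.33-fold for ALD1 and 1.91-fold for SARD4. The choice of experiments 1 and 2 was made with the values known.

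FMO1, which forms N-hydroxypipecolic acid, was dim and moved between experiments in another way. It read 4.18, 75.1 and 43.9 in Col and 15.4, 114 and 57.9 in soc1-101D. The plain ratios of soc1-101D to Col were 3.68, 1.52 and 1.32, the first between signals that both lie under the pseudocount. After the pseudocount the log2 differences were 0.56, 0.50 and 0.29, with a mean of 0.45 (SD 0.14). With a pseudocount of 0.02 or 0.5 times the median in place of 0.1, the mean was 0.74 or 0.20. With no filter, limma gave an adjusted p of 0.642.

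ICS1, the isochorismate synthase, read 346, 254 and 193 in Col and 356, 587 and 276 in soc1-101D. The groups overlap, and the soc1-101D array of experiment 2 stood above the other 6 arrays. The log2 differences were 0.04, 1.15 and 0.47, with a mean of 0.55 (95% interval 0.05 to 1.06) that did not pass the test (limma adjusted p = 0.399, unadjusted 0.0351). Of the 13648 tested probe sets, 1504 had an unadjusted limma p under 0.05 in this comparison. Without experiment 2 the mean was 0.26.

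EDS5, the transporter that acts after ICS1, read 350, 192 and 213 in Col and 378, 244 and 173 in soc1-101D. The groups overlap almost wholly, and the sign of the difference varied between experiments (log2 0.11, 0.32 and −0.27). The mean of 0.05 had a 95% interval of −0.33 to 0.44 (limma adjusted p = 0.955), and without experiment 2 it was −0.08. These data therefore do not settle the sign for EDS5.

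PAD4 and its partner EDS1 were compared next. PAD4 read 66.0, 88.7 and 51.2 in Col and 109, 170 and 76.5 in soc1-101D. The soc1-101D array was higher in each experiment by a log2 of 0.59, 0.81 and 0.44, but the groups overlap because the levels moved with the experiment. The mean was 0.62 (SD 0.18), and with no filter limma gave 0.62 ± 0.16 (SE, 95% interval 0.18 to 1.05, adjusted p = 0.554). With a pseudocount of 0.5 times the median the mean was 0.37.

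EDS1 read 145, 207 and 178 in Col and 184, 302 and 176 in soc1-101D. It was higher in soc1-101D by log2 differences of 0.30 and 0.51 in experiments 1 and 2, and the difference in experiment 3 was −0.02. The mean of 0.26 (95% interval −0.11 to 0.64) did not pass (limma adjusted p = 0.617), and was 0.14 without experiment 2 and 0.40 without experiment 3. In Col the neighbouring locus AT3G48080 is a close copy of EDS1, and whether its transcript adds to this signal was not tested.

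**Figure D3:**
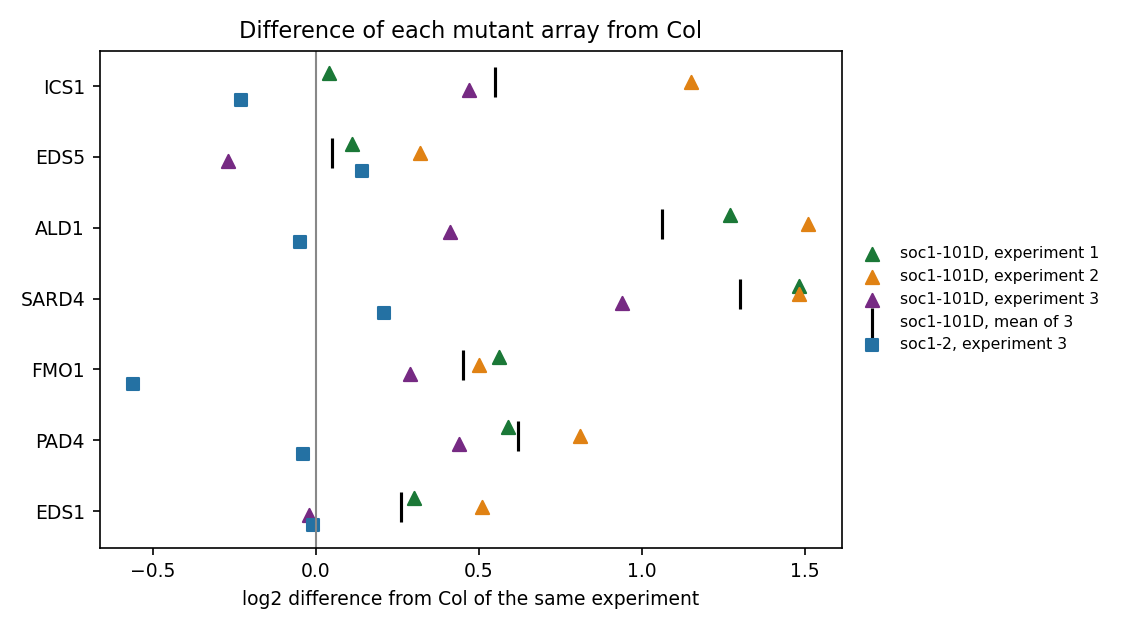
Log2 difference of each mutant array from the Col array of the same experiment, for the 7 genes: triangles are soc1-101D in experiment 1 (green), 2 (orange) and 3 (purple), the black bar is their mean and the blue square is the 1 soc1-2 array. SARD4 and ALD1 have the highest means, 1.30 and 1.06, and the purple triangle is the lowest of the 3 in 6 of 7 genes, for ALD1 only once the pseudocount is added.

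The difference between soc1-101D and Col was not the same size in the 3 experiments. Taken with its sign, it was lowest in experiment 3 for 6 of the 7 genes, all but ICS1. Of all probe sets, 28.5% had their lowest signed difference in that experiment. For EDS5 the value there was −0.27, a wider difference than the 0.11 of experiment 1. For ALD1 the low rank of experiment 3 rests on the pseudocount. By plain ratios of scaled signal, soc1-101D over Col, experiment 3 was the lowest for 5 of 7 genes and for 28.8% of all probe sets. The median over the 7 genes was 0.56 in experiment 1, 0.81 in experiment 2 and 0.41 in experiment 3, while over all probe sets it was −0.01, −0.01 and 0.02. With 1 array per genotype in each experiment, a difference between the experiments in the size of the change has no test.

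The second comparison asked what happened to these genes when SOC1 was lost. None was called on the soc1-2 array (limma, 0 of 4 tested, 0 of them at an unadjusted p under 0.05), where 0% of all tested probe sets were called and 387 had an unadjusted p under 0.05. FMO1 had the widest difference from Col of experiment 3, at a log2 of −0.56 (23.5 against 43.9). ICS1 followed, at −0.23 (162 against 193). SARD4 was at 0.21 (396 against 339) and EDS5 at 0.14 (236 against 213). ALD1, PAD4 and EDS1 were at −0.05, −0.04 and −0.01, with signals of 2.98, 49.3 and 177. No gene reached a 2-fold difference in either direction, a size that 2.38% of all probe sets reached upward and 1.72% downward.

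The soc1-2 signal was the lowest of the 7 arrays for ICS1, ALD1 and PAD4, whose Col signal was also lower in experiment 3 than in the other experiments. For EDS5, SARD4 and EDS1, tested in the limma fit, the soc1-2 coefficients were 0.30 (95% interval −0.31 to 0.91), 0.39 (−0.22 to 1.01) and 0.13 (−0.46 to 0.72). That of ICS1 was −0.19 (−0.98 to 0.61), and all 4 had adjusted p = 1. These intervals take their spread from the Col and soc1-101D arrays, since soc1-2 has 1 array, and the level of experiment 3 in the fit is set in part by its soc1-101D array. Of the genes higher in soc1-101D in every experiment, SARD4 was also higher in soc1-2 than in Col by its plain difference. ICS1, ALD1, FMO1 and PAD4 were lower, a direction that 51.9% of all probe sets showed. For ALD1 and PAD4 the difference was only −0.05 and −0.04, and their soc1-2 coefficients in the fit were positive, 0.27 and 0.05. The soc1-101D and soc1-2 differences share the Col array of experiment 3.

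Levels were also compared between the experiments. EDS5 and SARD4 were called in the moderated F-test of the experiment terms (limma, adjusted p = 0.02 and 0.0383), 2 of 4 tested, near the 51.6% of all tested probe sets called. EDS5 was highest in experiment 1, and at the same genotype it differed from that by −0.70 in experiment 2 and −0.86 in experiment 3 (log2). That call was lost without experiment 1 (adjusted p = 0.605). SARD4 was lowest in experiment 2, and its call was lost with the deposited values left unscaled (0.0989) and with quantile normalization (0.0853). It was also lost without experiment 2 (0.326) and without experiment 3 (0.0999). ICS1 and EDS1 did not pass (limma adjusted p = 0.105 and 0.0797). ICS1 passed without experiment 2 (limma adjusted p = 0.0386), between the levels of experiments 1 and 3. With a filter of 20% in place of 40%, neither EDS5 (0.0657) nor SARD4 (0.0971) was called, beside 26.8% of the probe sets then tested.

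ALD1 and FMO1 varied most and in different directions. Over the Col arrays alone ALD1 ran from 3.84 in experiment 3 to 81.6 in experiment 1, and FMO1 from 4.18 in experiment 1 to 75.1 in experiment 2. Their log2 ranges over the 3 Col arrays, 2.13 and 2.01, both exceeded 2, which 6.59% of all probe sets reached. The low ends, ALD1 in experiment 3 and FMO1 in experiment 1, lay under the pseudocount of 19.3, so these log2 ranges depend on it. With no filter on dim probe sets both were called in the F-test (limma adjusted p = 0.0383 and 0.0330), where 10.2% of all probe sets were called. PAD4 was not (adjusted p = 0.102). ALD1, whose product feeds FMO1 through SARD4, was lowest in experiment 3, and FMO1 was lowest in experiment 1. Between those experiments SARD4 differed by a log2 of 0.26 at the same genotype. Its signals in experiments 3 and 1 were 339 and 228 in Col and 666 and 671 in soc1-101D.

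**Figure D4:**
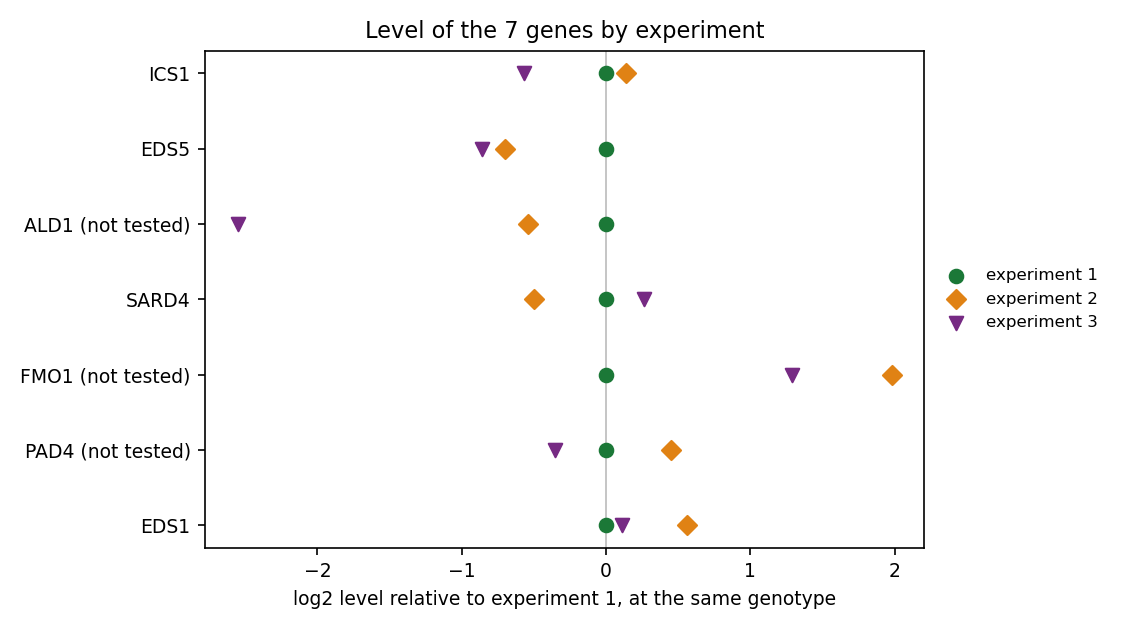
Log2 level of each gene in experiments 1 (green circle, set to 0), 2 (orange diamond) and 3 (purple triangle) at the same genotype, from the limma coefficients; genes marked as not tested were under the filter on dim probe sets. ALD1 in experiment 3 (−2.55) and FMO1 in experiment 2 (1.98) lie farthest from experiment 1. The signals of ALD1 in experiment 3 and of FMO1 in experiment 1 were under the pseudocount of 19.3.

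Over the 7 arrays, which share 3 experiments, the log2 values of PAD4 and ICS1 correlated at r = 0.90, of ALD1 and ICS1 at 0.86, of FMO1 and EDS1 at 0.83 and of PAD4 and EDS1 at 0.80. SARD4 stood apart, with r between 0.02 and 0.25 against the other 6. Once the mean of each experiment was subtracted, SARD4 and PAD4 correlated at 0.98, SARD4 and ALD1 at 0.97 and ALD1 and PAD4 at 0.97, values that then hold the differences between genotypes within experiments. EDS5 and FMO1 had the lowest r both ways, −0.72 and −0.19. These are descriptions over 7 points and carry no test.

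The named genes most like the mean profile of the 4 tested members over the 7 arrays were AT1G34750 (r = 0.967), RING1 (AT5G10380, 0.961), AT1G67750 (0.960), AT4G24160 (0.958) and AT5G25440 (0.945). RING1, a membrane-bound ubiquitin ligase gene, read 174, 168 and 168 in Col and 654, 737 and 274 in soc1-101D. Its groups do not overlap, and its log2 difference of 1.49 ± 0.26 (SE) did not pass (limma adjusted p = 0.0739), though it did without experiment 3 (0.00479) and with a pseudocount of 0.5 times the median (0.0205). After experiment means were subtracted, the most alike were CSA1 (AT5G17880, 0.998), a TIR-domain immune receptor gene, AT2G44640 (0.998), AT4G35850 (0.997), AT4G24160 (0.997) and AT2G17740 (0.994). In that form 487 tested probe sets outside the set had an r above 0.9, against 32 over the plain values.

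The wider pathway could be followed in part. Of 52 other listed genes of salicylate and pipecolate synthesis, turnover, signalling and response, 7 had a single probe set in the gene table and 4 of these were tested. Of these 4, 1 was called higher in soc1-101D and 0 lower, where 0.271% of all tested probe sets were called higher and 0.271% lower. It was CHI (AT2G43570), a chitinase gene used as a salicylate response gene, and the 1 of 4 listed response genes with a single probe set. Its signal was 234, 405 and 132 in Col, 1140, 1350 and 369 in soc1-101D and 146 in soc1-2 (log2 difference 1.74 ± 0.19, limma adjusted p = 0.0148). The call was lost in the same 5 alternatives as that of SARD4, with adjusted p between 0.0545 without experiment 1 and 1 without the experiment block. Its groups overlap, since the soc1-101D array of experiment 3 lay below the Col array of experiment 2.

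The other tested genes did not pass. UGT76B1, a glucosyltransferase that acts on N-hydroxypipecolic acid, had a log2 difference of 0.38 (limma adjusted p = 0.527), which was 0.13 without experiment 1. It read 77.6, 296 and 331 in Col and 158, 349 and 343 in soc1-101D. GH3.5, which joins amino acids to auxin and salicylate, was at −0.04 (adjusted p = 0.972) and changed sign without experiment 2 (0.22). SAG101, a partner of EDS1, was at −0.35 (0.761), with single differences of −1.41, −0.01 and 0.37, and was at 0.18 without experiment 1. The dim genes had values with no test: BSMT1, a salicylate methyltransferase gene, differed by 0.25, UGT74F1, a salicylate glucosyltransferase gene, by −0.01, and NPR2, a relative of the salicylate receptor gene NPR1, by −0.65.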

How the data were processed

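Total RNA of whole seedlings was measured on 7 arrays (3 Col, 3 soc1-101D, 1 soc1-2), grouped by the titles in the labels. The authors deposited linear intensity values, 1 for each probe set on each array; how they were computed is not stated in the labels or the table. Trimmed by 2%, the mean of an array lay between 495.5 and 496.2, and medians ran from 178.8 to 206.8. A common scaling of whole arrays fixes the mean level, so a shift of all genes would not be seen.

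Arrays were brought to a common median (192.7), 0.1 times that median was added, and 2-sided tests on log2 values were run in limma 3.58.1 (R 4.3.3), with genotype and experiment as fixed terms over all 7 arrays. There were 2 residual degrees of freedom, to which the prior added 5.62. For a group with fewer arrays (soc1-2) the spread comes from the others. The experiment was kept as a block because the labels give Col of the matching experiment as the baseline. The pairing was checked through each array's deviations from its group mean, which in experiments 1, 2 and 3 correlated at r = 0.849, 0.739 and 0.821 between Col and soc1-101D. The number of arrays limits the precision.

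Probe sets were named through the platform gene table and RefSeq (assembly TAIR10.1): 13513 had 1 gene, 503 several and 8730 none. Named genes were the 7 members, the listed pathway genes with a single probe set, and the 5 genes most alike in each of 2 forms of the profile. The members, lists and tests were chosen with earlier results of these data known. Tested on simulated data (13648 probe sets, 200 of them changed), the soc1-101D comparison recovered 41.2% of 2-fold and 79.2% of 4-fold changes, with 2.59% of calls false. These shares describe the simulated data alone. They do not give the share of false calls on the 7 arrays, where the calls fell to 0 under other filters. Scaling, pseudocount, filter, variance prior, block and left-out arrays were varied. No sequences or genome positions were used here.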

Additional observations from a re-analysis of the deposited data

How the results depend on the processing

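Probe sets called in soc1-101D against Col numbered 74 (37 higher, 37 lower). Quantile normalization gave 19 (11 and 8), a pseudocount of 0.02 times the median 49 (22 lower), and one of 0.5 times the median 175 (87 and 88). With no filter, with the lowest 20% left out, and without the replicate block of experiment numbers, limma called 0 (1714, 1637 and 222 at an unadjusted p under 0.05). Leaving out each experiment gave 16 to 153 calls (9 to 79 higher, 7 to 74 lower), with 16 without experiment 1. The soc1-2 count of 0 became 14 with a pseudocount of 0.5 times the median, and leaving out each experiment gave 0 to 30, with 30 without experiment 2. The count of probe sets that differed between experiments, 7044, became 2317 with no filter, and leaving out each experiment gave 3462 to 6205.

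Of the 7 genes, EDS5 changed sign in soc1-101D without experiment 2 (−0.08, and from there to 0.21 as each experiment was left out) and in soc1-2 without the replicate block (−0.04). GH3.5 ran from −0.27 to 0.22 and SAG101 from −0.71 to 0.18 as each experiment was left out, and GH3.5 was at 0 with quantile normalization. None of these was called in any setting. The sign in soc1-101D held in all 12 alternatives for the other 6 genes, and the median over all 7 ran from 0.37 to 0.72. Changes of filter, variance prior, block or the soc1-2 array could not alter these soc1-101D values, so only the other alternatives bear on them. Without the replicate block the soc1-2 coefficient of ALD1 was −1.25 in place of 0.27, as it then set experiment 3 against all Col arrays. That of PAD4 changed sign too, from 0.05 to −0.34, and that of FMO1 went from −0.48 to −0.28. The causes of the other changes were not tested. ALD1 and FMO1 had 3 and 2 arrays under the pseudocount, where the signal limits the size of a difference. Without experiment 3 no value exists for soc1-2.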
